A study of Mus musculus with 9 samples.

Results

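Aminoacyl-tRNA synthetases attach amino acids to their transfer RNAs, and the genes described here are the cytosolic and mitochondrial members of that family in mouse myoblasts. Members were taken by name: protein-coding genes whose symbol is an amino acid letter followed by ars with or without a final 1 or 2, together with Eprs, Farsa and Farsb. The rule found 37 of the 55536 genes in the table, 20 cytosolic and 17 mitochondrial, and all 37 passed the filter on low counts. The libraries came from primary murine myoblasts carrying floxed Uqcrfs1, the gene of the Rieske iron-sulphur subunit of respiratory complex III. There were 3 groups of 3 libraries. The first was knockout cells (uqcrfs1 -/-) given 7.5 µM oxybutynin, a blocker of muscarinic acetylcholine receptors. The second was knockout cells given the solvent DMSO, called knockout vehicle. The third was floxed cells (uqcrfs1 +/+) given DMSO, called floxed vehicle. Per the labels, cells received adenovirus for Cre or GFP, were seeded 72 h later, and were treated 24 h after seeding for 5 days. The titles name GFP for the floxed libraries, so genotype and virus cannot be told apart, and no floxed cells received the drug. The labels do not say whether replicates were separate cultures or animals. A p-value here reflects spread within groups of 3 libraries, and that spread may be technical.

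Each synthetase recognises a single amino acid and its tRNAs, except the bifunctional Eprs, which charges glutamate and proline tRNAs. Most amino acids have a cytosolic enzyme and a separate nuclear-encoded enzyme that is imported into mitochondria and marked by a final 2 in its symbol. Gars and Kars each supply both compartments from a single gene, and Qars has no mitochondrial counterpart because mitochondria make glutaminyl-tRNA by amidation. Several cytosolic enzymes (Eprs, Iars, Lars, Mars, Qars, Rars, Kars and Dars) are held together in the multisynthetase complex. Many cytosolic synthetase genes are known targets of ATF4, a transcription factor induced in the integrated stress response that binds a composite C/EBP-ATF element.

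Library totals ran from 19604971 to 26226949 counts. Uqcrfs1 stood at 2.90, 2.71 and 2.07 CPM (counts scaled to a common library total) in knockout oxybutynin libraries and 2.38, 2.13 and 2.83 CPM in knockout vehicle libraries, against 78.6, 76.5 and 83.6 CPM in floxed vehicle libraries. The 8 myoblast markers summed to 4178 to 4437 CPM with oxybutynin, 3450 to 4313 CPM in knockout vehicle and 3381 to 3560 CPM in floxed vehicle, but they did not move together. Myog (127 to 150 CPM in knockout vehicle, 181 to 213 CPM in floxed vehicle) and Cdh15 (87.1 to 113 CPM and 173 to 203 CPM) were lower without overlap, and Des (786 to 1077 CPM and 683 to 701 CPM) and Pax7 (376 to 399.6 CPM and 317 to 325 CPM) higher. Markers of endothelium, fibroblasts, adipocytes, leukocytes and Schwann cells summed to at most 13.6 CPM for any list; the leukocyte sum was 12.3 to 13.6 CPM with oxybutynin, 11.3 to 12.8 CPM in knockout vehicle and 5.26 to 6.14 CPM in floxed vehicle. Cd68 carried that difference (11.4 to 12.4, 10.0 to 11.8 and 4.14 to 5.11 CPM in the same order), while Ptprc, which defines leukocytes, was at most 0.343 CPM in any library and Cd3e was at 0 in all but 1. The fibroblast sum was 4.31 to 5.51 CPM with oxybutynin, 5.22 to 5.73 CPM in knockout vehicle and 3.63 to 3.99 CPM in floxed vehicle. The adipocyte sum was 0.359 to 1.06, 0.648 to 1.16 and 0.0445 to 0.387 CPM in these groups. Lum and Lep were at 0 throughout. The Schwann sum was 1.57 to 2.41, 1.68 to 2.34 and 2.35 to 2.93 CPM, and the endothelial sums of the groups overlapped. Mitochondrially encoded RNAs took 1.58 to 2.12% of counts with oxybutynin, 1.95 to 2.71% in knockout vehicle and 3.07 to 3.13% in floxed vehicle, and the small nuclear RNA Rn7sk took 3.36 to 3.98%, 2.36 to 3.59% and 1.93 to 2.10%. The part of these differences in the results was not tested. The mean Pearson correlation of log2 CPM with the oxybutynin libraries was 0.9927 for knockout vehicle replicate 3 and 0.9884 for replicate 1, both above their correlation with their own group (0.988 and 0.9873), while replicate 2 was nearer its own group (0.9836 with oxybutynin, 0.9855 with its group). Fold changes across 12976 protein-coding genes also followed the GC content of the transcript, with a Spearman correlation of 0.542 (knockout with floxed vehicle) and 0.690 (oxybutynin with vehicle). Members are therefore also given after the trends of each library on GC and length of exons were taken out, called the adjusted fit below. In bulk RNA a change in the mix of cells and a change in RNA per cell cannot be told apart.

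Cytosolic synthetase mRNAs were far more abundant than mitochondrial ones. On a scale of CPM per kilobase of the principal transcript, the median level of the 20 cytosolic genes was 61.0 with oxybutynin, 57.4 in knockout vehicle and 39.6 in floxed vehicle. The 17 mitochondrial genes had medians of 7.29, 6.68 and 6.25 in the same groups. In floxed vehicle the highest level per kilobase belonged to the glycyl enzyme Gars, at 113 ± 3.78 (SD, n = 3). The asparaginyl enzyme Nars (97.3 ± 0.818) and the lysyl enzyme Kars (94.9 ± 5.10) came next and did not differ beyond their spread. The lowest cytosolic genes there were Farsa (20.5 ± 0.631) and the histidyl gene Hars (20.1 ± 0.345), still above the highest mitochondrial gene, Iars2 (15.8 ± 0.700). In oxybutynin libraries the ranges met, since the aspartyl gene Dars had fallen to 19.7 ± 2.12 CPM per kilobase beside 20.7 ± 1.35 for Tars2. Mars2, whose principal transcript is 11294 bases long, was the lowest member in every group, at 1.02 ± 0.0548, 1.12 ± 0.0895 and 1.62 ± 0.122 CPM per kilobase in knockout oxybutynin, knockout vehicle and floxed vehicle libraries.

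The first comparison, knockout with floxed vehicle, asks how these genes differed when Uqcrfs1 was lost and no drug was given. Of the 20 cytosolic synthetases 13 rose, 2 fell and 5 were not called at an adjusted p under 0.05 in edgeR's quasi-likelihood test. Over all 15720 genes tested 29.9% were called higher and 33.4% lower. The median log2 fold change was 0.45 for the cytosolic genes and -0.01 for all genes tested. Of the 17 mitochondrial synthetases 7 rose, 3 fell and 7 were not called, with a median of 0.10. The CPM values of the groups did not overlap for 15 cytosolic genes that were higher and 2 that were lower, and for 7 and 4 mitochondrial genes, where 31.2% of all genes were higher and 35.5% lower without overlap. By catalytic fold, 9 of 10 cytosolic class I enzymes rose and 1 fell (median 0.55), with Eprs counted here by its glutamyl domain. Of 10 class II enzymes 4 rose and 1 fell (median 0.21). The adjusted fit gave 9 class I genes higher and 0 lower (median 0.39), and 7 class II genes higher and 1 lower (median 0.23). The difference between the classes was not tested. In the adjusted fit 16 cytosolic genes were higher and 1 lower (median 0.34), and 6 mitochondrial genes were higher and 2 lower (median 0.18), where 26.4% of all genes were higher and 34.1% lower with a median of -0.08. Summed over the class, cytosolic synthetases took 4680 ± 123 CPM in knockout vehicle and 3191 ± 38.9 CPM in floxed vehicle libraries, and mitochondrial synthetases 428 ± 1.57 and 381 ± 2.56 CPM (SD, n = 3).

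**Figure D1:**
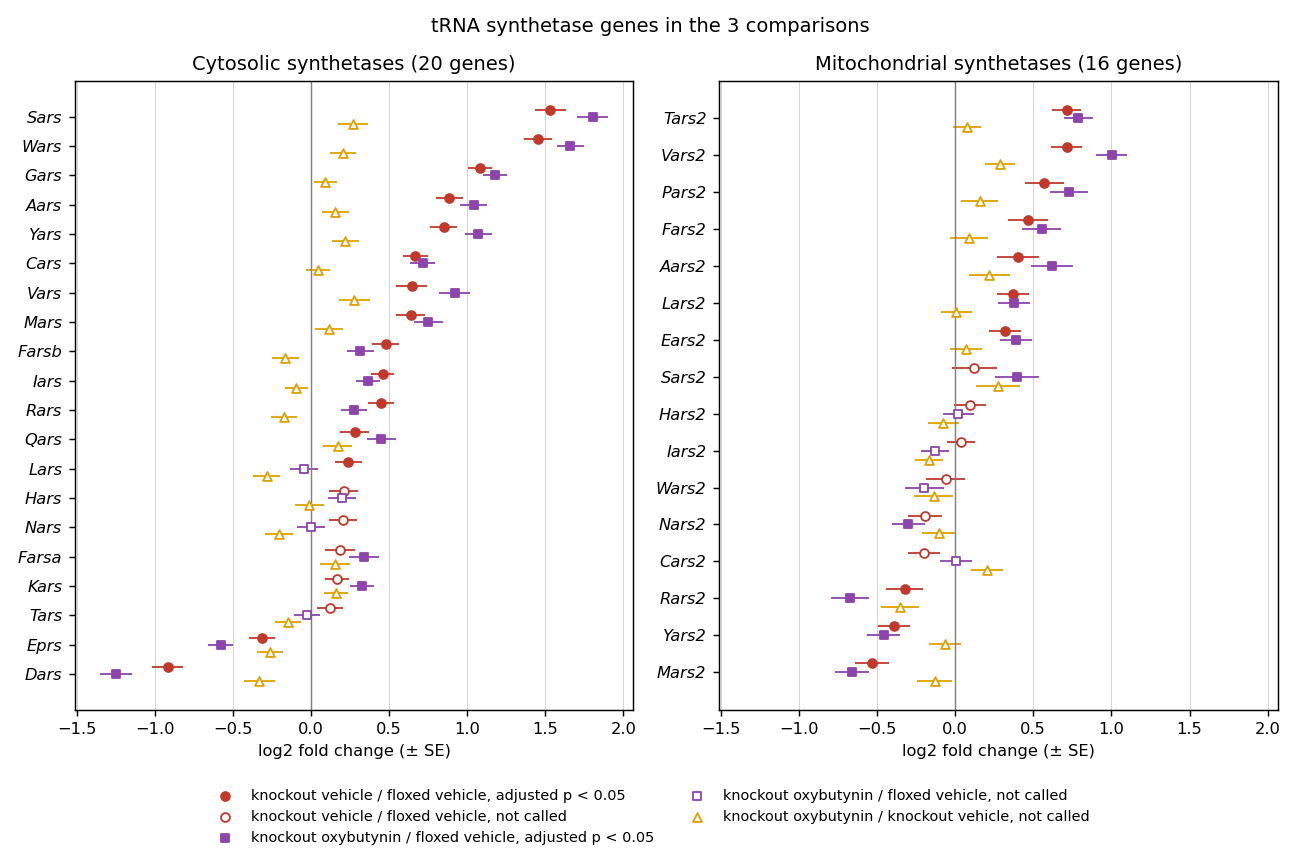
Log2 fold change (x axis, ± SE) of each synthetase gene (y axis) in edgeR's fit, 20 cytosolic genes on the left and 16 mitochondrial genes on the right; circles are knockout vehicle over floxed vehicle, squares knockout oxybutynin over floxed vehicle and triangles knockout oxybutynin over knockout vehicle, filled where called. Sars, Wars and Gars lie furthest right, Dars and Eprs are the only cytosolic genes called lower, and no triangle is filled.

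The largest rises were those of the seryl, tryptophanyl and glycyl enzymes. Sars (ENSMUSG00000068739, chr3:108424865-108445209 in GRCm38, minus strand) stood at 373, 349.9 and 461 CPM in knockout vehicle libraries, against 137, 138 and 135 CPM in floxed vehicle. That was a log2 fold change of 1.53 ± 0.10 (SE, adjusted p = 6.57e-10), or 2.89-fold, with the third knockout library highest and no overlap between groups. Wars (ENSMUSG00000021266, chr12:108860030-108894174, minus strand) stood at 235, 264 and 287 CPM in knockout vehicle and 93.7, 96.6 and 97.1 CPM in floxed vehicle libraries, a log2 fold change of 1.45 ± 0.09 (adjusted p = 3.16e-10). The lowest knockout library lay far above the highest floxed one. Gars (ENSMUSG00000029777, chr6:55038007-55079500, plus strand), which also serves mitochondria, stood at 546, 589.8 and 582 CPM in knockout vehicle and 260.0, 277 and 273 CPM in floxed vehicle libraries, a log2 fold change of 1.08 ± 0.08 (adjusted p = 2.16e-09). These were the 3 members that rose at least 2-fold, and in the adjusted fit the log2 fold change was 1.21 for Sars, 1.06 for Wars and 0.82 for Gars.

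The alanyl and tyrosyl enzymes rose less than 2-fold. Aars stood at 403, 361 and 449.6 CPM in knockout vehicle and 222, 211 and 223 CPM in floxed vehicle libraries (log2 fold change 0.89 ± 0.09, adjusted p = 1.04e-07). Yars stood at 168, 155 and 191 CPM in knockout vehicle and 96.5, 93.4 and 95.2 CPM in floxed vehicle libraries (0.85 ± 0.09, adjusted p = 1.65e-07). Neither gene had overlapping groups, and both stayed called in the adjusted fit, at 0.64 and 0.57. The other 8 cytosolic genes called higher ranged from 0.67 for the cysteinyl gene Cars down to 0.24 for the leucyl gene Lars. They were Cars, Vars (0.64), Mars (0.64), Farsb (0.48), Iars (0.46), Rars (0.45), Qars (0.28) and Lars. The adjusted fit gave 0.39 for Cars, 0.22 for Vars, 0.24 for Mars, 0.50 for Farsb, 0.40 for Iars, 0.55 for Rars, 0.13 for Qars and 0.30 for Lars. Qars lost its call in the adjusted fit (adjusted p = 0.17), and Lars lost it without any of the floxed libraries in turn or without knockout vehicle replicate 1 (adjusted p = 0.0502 to 0.078). Farsa and Farsb encode the alpha and beta subunits of the single phenylalanyl enzyme; Farsb was called and Farsa, at 0.19 ± 0.09, was not (adjusted p = 0.0968). Kars (0.17), Hars (0.21), Nars (0.21) and Tars (0.12), the lysyl, histidyl, asparaginyl and threonyl genes, were not called either, with adjusted p from 0.0543 to 0.216. In the adjusted fit Kars (0.17), Nars (0.20) and Tars (0.26) were called higher and Hars had the opposite sign (-0.10) and was not called. Hars was called higher with RLE scaling, library totals, no filter, the 2 groups alone, DESeq2, or without knockout vehicle replicate 2.

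The 2 cytosolic genes that fell both encode proteins of the multisynthetase complex. Dars (ENSMUSG00000026356, chr1:128363707-128417368, minus strand) stood at 61.5, 52.0 and 48.4 CPM in knockout vehicle and 101, 100.3 and 104 CPM in floxed vehicle libraries. Its log2 fold change was -0.92 ± 0.10 (adjusted p = 3.82e-07), all knockout libraries lay below all floxed ones, and it was -0.25 in the adjusted fit (adjusted p = 0.0176). Eprs (ENSMUSG00000026615, chr1:185363044-185428360, plus strand) stood at 244, 262 and 236 CPM in knockout vehicle and 303, 306 and 313 CPM in floxed vehicle libraries. Its log2 fold change of -0.32 ± 0.08 (adjusted p = 0.00286) turned round in the adjusted fit, to 0.50 (adjusted p = 6.43e-06), so its direction depends on that setting. Of the 8 synthetases of the complex 5 were called higher and 2 lower, with a median of 0.26. Of the 12 outside it 8 were called higher and 0 lower, with a median of 0.66, beside 29.9% and 33.4% of all genes. In the adjusted fit 6 of the complex were higher and 1 lower (median 0.27). Outside it 10 were higher and 0 lower in that fit (median 0.45), beside 26.4% and 34.1% of all genes. The summed level of the complex members was 1654 ± 34.2 CPM in knockout vehicle and 1449 ± 21.0 CPM in floxed vehicle, and that of the others 3026 ± 158 and 1742 ± 19.1 CPM. The difference between these groups of genes was not tested.

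**Figure D2:**
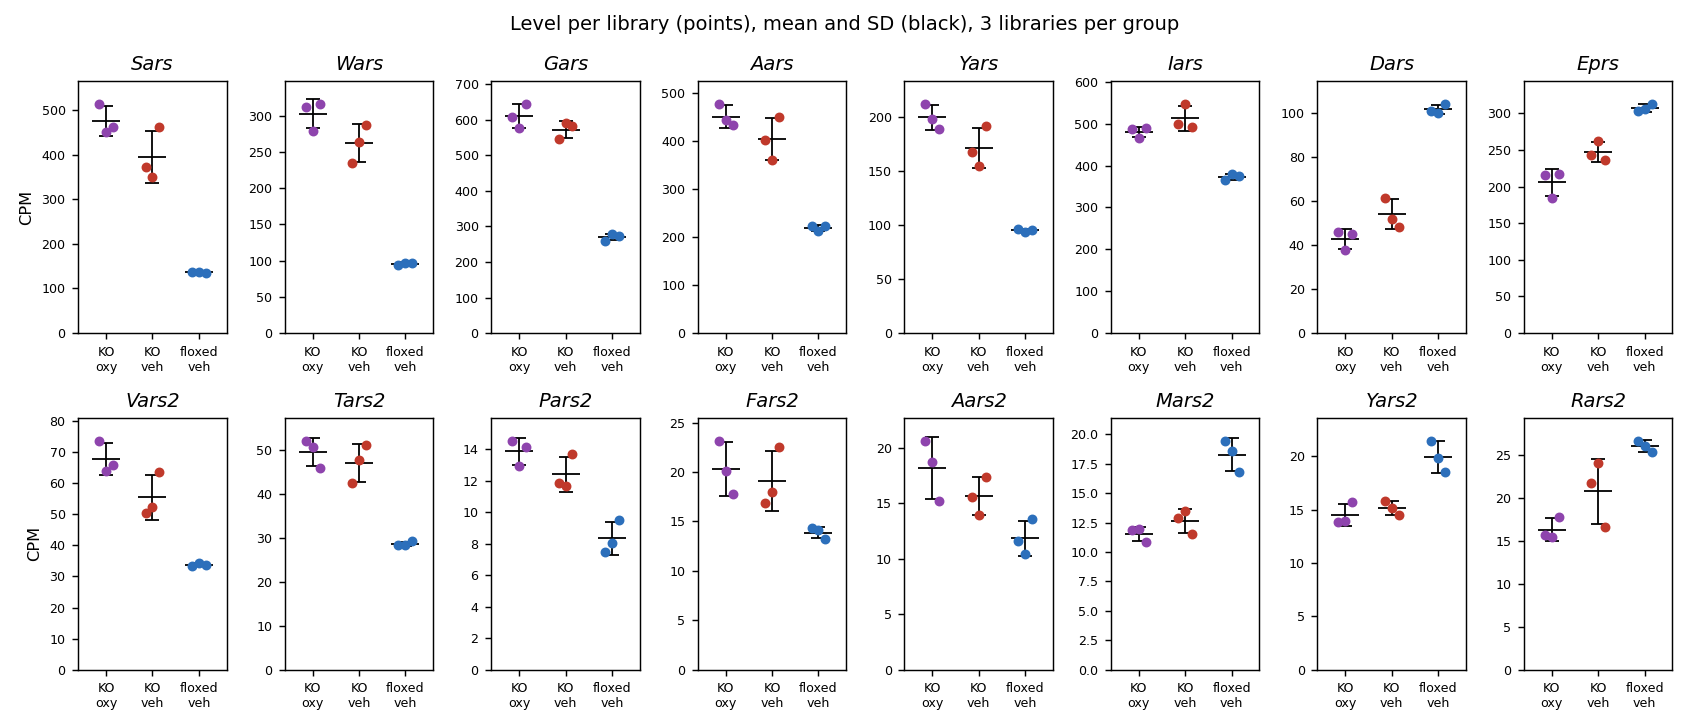
CPM (y axis, from 0) of 16 synthetase genes in each library (points) with the mean and SD of 3 libraries (black), for knockout oxybutynin, knockout vehicle and floxed vehicle from left to right; the upper row is cytosolic and the lower row mitochondrial. The floxed libraries lie close together, at 135 to 138 CPM for Sars and 93.7 to 97.1 CPM for Wars, while the knockout vehicle libraries spread over 349.9 to 461 and 235 to 287 CPM.

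The mRNA of Atf4 also rose, and sequence around the start of the synthetase genes was read for the ATF4 composite element. Atf4 stood at 834 ± 89.1 CPM in knockout vehicle and 380.3 ± 8.13 CPM in floxed vehicle libraries (log2 fold change 1.13 ± 0.09, adjusted p = 6.81e-09; 0.62 in the adjusted fit). The element was written TGATGNAA and searched on both strands of RefSeq windows from 250 bases before to 50 bases after each start (build GRCm38.p6). Windows were found for 27 members, 13 cytosolic and 14 mitochondrial. Cars, Hars, Lars, Nars, Rars, Vars, Wars, Hars2 and Pars2 had none. Counted by gene, the element was present in 5 of the 13 cytosolic genes (Aars, Gars, Iars, Tars and Yars) and in 0 of the 14 mitochondrial genes. Of all 27025 genes with a window 4.51% hold it, and of all 32851 windows 3.97% do. The stricter form TGATGCAA, whose matches are a part of the first, was in 4 of the 13 cytosolic genes. It is held by 1.03% of all genes with a window and by 0.895% of all windows. Stretches of 30 bases around a match in each of these genes are printed to show the element in place, 5′ to 3′ on the strand of the gene, with capitals marking the match or its reverse complement.
Aars, positions 10 to 17 from the start, chr8:111033840-111033869 (plus strand): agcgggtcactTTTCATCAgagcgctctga
Gars, positions -30 to -23, chr6:55037960-55037989 (plus strand): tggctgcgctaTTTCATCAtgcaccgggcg
Iars, positions 8 to 15, chr13:49682126-49682155 (plus strand): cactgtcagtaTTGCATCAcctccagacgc
Tars, positions -15 to -8, chr15:11399655-11399684 (minus strand): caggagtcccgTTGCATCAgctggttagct
Yars, positions 4 to 11, chr4:129189895-129189924 (plus strand): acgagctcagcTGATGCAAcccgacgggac

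The matches are set beside the fold changes as a description. Sars, with the largest rise of all members, held no match in its window. That window (chr3:108445210-108445509) lies wholly before the GENCODE start of the gene at 108445209. For Sars, Dars, Farsa, Gars, Kars, Iars2, Sars2 and an Aars2 window, the bases at the RefSeq start were in no GENCODE transcript of the gene. The 250 bases before the RefSeq start of Sars, the member that changed most, are printed (chr3:108445260-108445509, minus strand, 5′ to 3′).
Sars: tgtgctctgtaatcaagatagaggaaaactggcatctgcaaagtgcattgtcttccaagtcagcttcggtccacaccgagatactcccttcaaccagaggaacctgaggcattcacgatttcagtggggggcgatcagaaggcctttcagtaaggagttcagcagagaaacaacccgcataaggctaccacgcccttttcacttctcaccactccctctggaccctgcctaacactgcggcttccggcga
Tars held the strict form 15 bases before its start and was not called (log2 fold change 0.12 ± 0.09, adjusted p = 0.216). In the adjusted fit Tars was called higher (0.26, adjusted p = 0.00111). The other genes with a match, Gars (1.08), Aars (0.89), Yars (0.85) and Iars (0.46), were called higher. Among cytosolic genes with a window and no match, Sars, Mars, Farsb and Qars were called higher and Dars and Eprs lower. Farsa and Kars, also without a match, were not called. Whether matches go with fold changes was not tested. Whether any match is bound was not measured, and no match says only that these letters are not in the window.

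Mitochondrial synthetases moved in both directions and by less. The threonyl gene Tars2 (ENSMUSG00000028107, chr3:95739976-95760206, minus strand) stood at 42.6, 47.7 and 51.2 CPM in knockout vehicle and 28.6, 28.5 and 29.3 CPM in floxed vehicle libraries, a log2 fold change of 0.71 ± 0.09 (adjusted p = 3.32e-06; 0.56 in the adjusted fit). The valyl gene Vars2 (ENSMUSG00000038838, chr17:35655634-35667592, minus strand) stood at 50.3, 52.4 and 63.6 CPM in knockout vehicle and 33.4, 34.3 and 33.8 CPM in floxed vehicle libraries (0.71 ± 0.10, adjusted p = 6.78e-06; 0.28 in the adjusted fit). These largest rises of the class had no overlap between groups. The prolyl gene Pars2 stood at 11.8, 11.7 and 13.7 CPM in knockout vehicle and 7.46, 8.03 and 9.51 CPM in floxed vehicle libraries (0.57 ± 0.12, adjusted p = 0.00067). The phenylalanyl gene Fars2 stood at 16.9, 17.9 and 22.5 CPM in knockout vehicle and 14.3, 14.1 and 13.2 CPM in floxed vehicle libraries (0.46 ± 0.13, adjusted p = 0.00406). The alanyl gene Aars2 stood at 15.6, 14.0 and 17.4 CPM in knockout vehicle and 11.6, 10.4 and 13.6 CPM in floxed vehicle libraries (0.40 ± 0.14, adjusted p = 0.0159). For these lower genes the groups came close but did not overlap, and none of the 3 was called in the adjusted fit (adjusted p = 0.0704, 0.137 and 0.618), where Aars2 took the opposite sign (-0.06). Lars2 (0.37 ± 0.10) and the glutamyl gene Ears2 (0.32 ± 0.10) were also called higher, and Ears2 was not called in the adjusted fit (adjusted p = 0.284) or without floxed vehicle replicate 3 (0.0508). Aars2 lost its call without floxed vehicle replicate 2 (adjusted p = 0.0908), without replicate 1 (0.05) and without knockout vehicle replicate 3 (0.0718).

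The mitochondrial genes that fell were the methionyl, tyrosyl and arginyl ones. Mars2 (ENSMUSG00000046994, chr1:55237177-55248470, plus strand) stood at 12.9, 13.5 and 11.5 CPM in knockout vehicle and 19.5, 18.6 and 16.8 CPM in floxed vehicle libraries, a log2 fold change of -0.53 ± 0.11 (adjusted p = 0.000387). It has the lowest GC content of all members, 38.8%, and in the adjusted fit its value was 0.60 (adjusted p = 0.000153), so its direction depends on that setting. Yars2 (ENSMUSG00000022792) stood at 15.8, 15.2 and 14.5 CPM in knockout vehicle and 21.5, 19.8 and 18.5 CPM in floxed vehicle libraries (-0.39 ± 0.10, adjusted p = 0.0031), without overlap and with -0.33 in the adjusted fit. Rars2 stood at 21.8, 24.1 and 16.6 CPM in knockout vehicle and 26.7, 26.1 and 25.3 CPM in floxed vehicle libraries (-0.32 ± 0.12, adjusted p = 0.026). Knockout vehicle replicate 3 was lowest, and without it the Rars2 value was -0.18 (adjusted p = 0.124). Rars2 also lost its call without floxed vehicle replicate 1 (adjusted p = 0.0767), floxed vehicle replicate 2 (0.0637) or knockout vehicle replicate 1 (0.0521); in the adjusted fit it was -0.04 (adjusted p = 0.736). The uncalled genes included Cars2, Nars2, Wars2, Iars2, Hars2 and Sars2, between -0.20 and 0.12. In the adjusted fit Iars2 (0.22) was called higher and Sars2 (-0.40) lower.

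Ratios within a library do not depend on its scaling, so each cytosolic gene was also divided by its mitochondrial counterpart, with Farsa set against Fars2. Of 15 pairs, 10 had a higher mean log2 ratio in knockout vehicle than in floxed vehicle and 5 a lower one, with a median difference of 0.42. The log2 ratio of Wars to Wars2 was 4.24 ± 0.295 in knockout vehicle and 2.73 ± 0.111 in floxed vehicle libraries (SD, n = 3), a difference of 1.52. That of Sars to Sars2 was 5.14 ± 0.190 and 3.72 ± 0.0916 in the same groups, and that of Yars to Yars2 was 3.49 ± 0.201 and 2.26 ± 0.0987. That of Tars to Tars2 was lower, at 1.85 ± 0.286 in knockout vehicle and 2.44 ± 0.0406 in floxed vehicle libraries. Each of these 4 pairs gave p = 0.1, the lowest that an exact two-sided permutation test can reach with 3 libraries a group (0.125 after Benjamini-Hochberg adjustment over the 15 pairs), so no pair could pass 0.05. Vars to Vars2 differed by -0.07 (exact permutation p = 0.2). The members of a pair can differ in GC content, as Mars at 53.4% and Mars2 at 38.8% do.

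**Figure D3:**
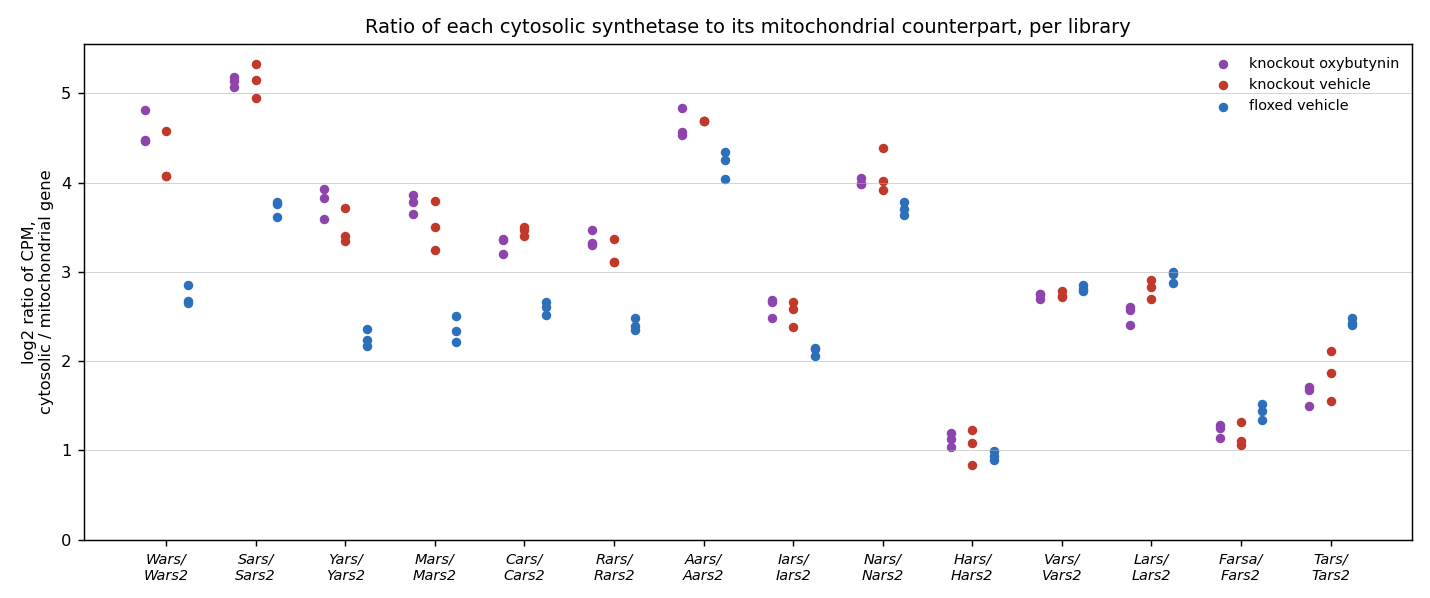
Log2 ratio of the CPM of a cytosolic synthetase to that of its mitochondrial counterpart (y axis) in each library for 14 pairs (x axis), ordered by the difference between knockout vehicle and floxed vehicle; within a pair the points are knockout oxybutynin, knockout vehicle and floxed vehicle from left to right. Wars to Wars2 shows the widest rise, at 4.24 in knockout and 2.73 in floxed vehicle, and Tars to Tars2 the widest fall shown, at 1.85 and 2.44.

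Base composition moved with the fold changes among the members as it did over all genes. Across the 20 cytosolic genes the log2 fold change of knockout over floxed vehicle had a Spearman correlation of 0.729 with GC content, and across the 17 mitochondrial genes it was 0.789, as a description of genes measured in the same libraries. The median GC content was 49.8% for cytosolic and 48.2% for mitochondrial genes, beside 49.8% for all protein-coding genes tested. Dars (41.2%) and Eprs (44.0%) are the cytosolic genes of lowest GC content and were the ones called lower. Sars, Wars and Gars, at 53.0%, 53.4% and 50.3%, rose more than Vars, which at 60.9% has the highest GC content of all members. Taking out the trend also takes out any group difference tied to base composition or transcript length.

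**Figure D4:**
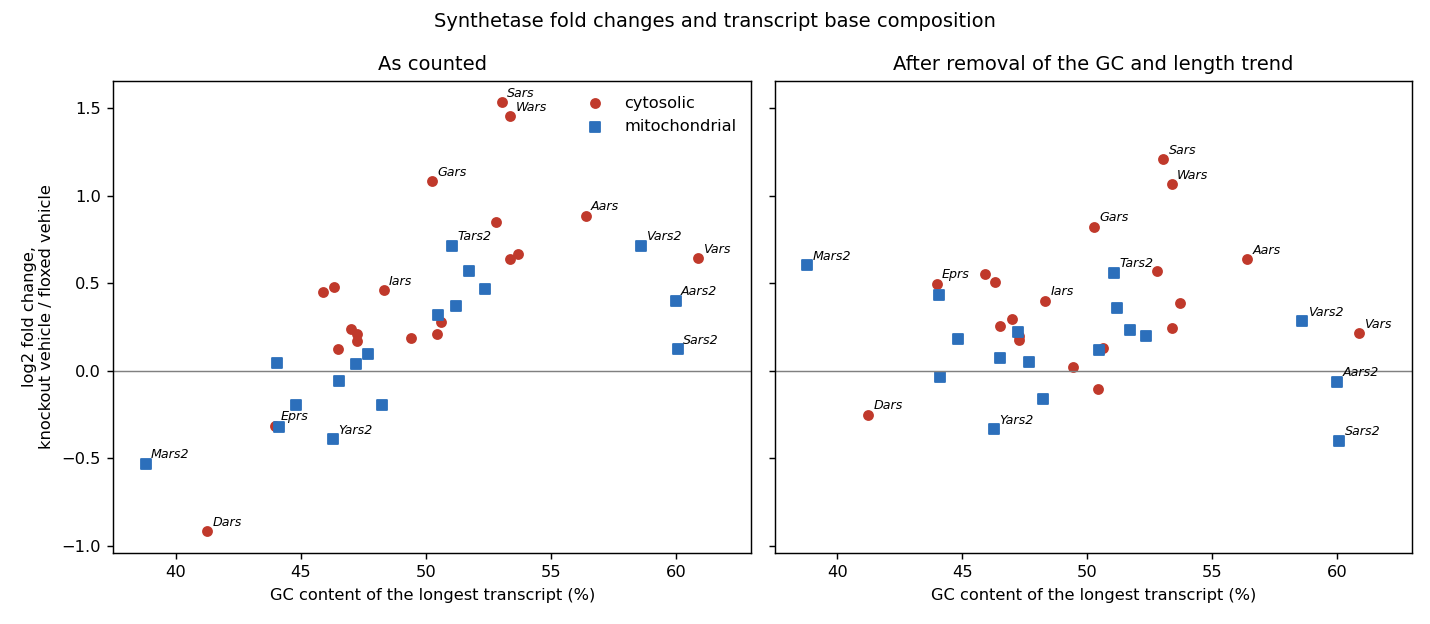
Log2 fold change of knockout vehicle over floxed vehicle (y axis) against GC content of the longest transcript in percent (x axis) for 20 cytosolic (circles) and 17 mitochondrial (squares) synthetases, as counted on the left and after removal of each library's GC and length trend on the right. Sars, Wars and Gars stay highest in both panels, while Eprs and Mars2 cross from below 0 to above it.

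The second comparison, oxybutynin with vehicle in knockout cells, asks what the drug did. None of the 37 synthetases was called in edgeR's quasi-likelihood test, where 0.0127% of all 15720 genes were. Members' log2 fold changes ran from -0.35 ± 0.12 for Rars2 to 0.29 ± 0.10 for Vars2, with a median of 0.07 for each compartment. The lowest adjusted p was 0.0885, for Dars, which stood at 45.9, 37.6 and 45.3 CPM with oxybutynin and 61.5, 52.0 and 48.4 CPM with vehicle (log2 fold change -0.33 ± 0.10). The oxybutynin libraries all lay below the vehicle libraries, and the same was true of Lars, Eprs and Iars, while Kars and Vars2 were higher without overlap; over all genes 11.6% were lower and 10.5% higher without overlap. Sars stood at 514, 451 and 463 CPM with oxybutynin and 373, 349.9 and 461 CPM with vehicle (0.27 ± 0.10, adjusted p = 0.114). The third vehicle library lay within the range of the oxybutynin libraries and the other 2 lay below it.

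The absence of calls depended on knockout vehicle replicate 3, on the test and on the filter. Without that library 26% of all genes were called, and so were 16 synthetases, 8 higher and 8 lower. The higher ones were Vars (log2 fold change 0.41 ± 0.08, adjusted p = 0.00435), Sars (0.40 ± 0.07, adjusted p = 0.0039), Vars2 (0.40), Yars (0.31), Wars (0.28), Qars (0.25), Aars (0.24) and Kars (0.20). The lower ones were Rars2 (-0.49 ± 0.09, adjusted p = 0.00511), Dars (-0.40), Lars (-0.38), Nars (-0.31), Eprs (-0.30), Iars2 (-0.25), Rars (-0.24) and Tars (-0.23). DESeq2 with all libraries called Dars (-0.34), Lars (-0.29) and Eprs (-0.27) lower and 0 members higher, where it called 11.3% of genes. In edgeR with all libraries and no filter 1 member was called higher and 2 lower, beside 3.65% of 30103 genes. With all libraries the log2 fold changes had a Spearman correlation with GC content of 0.803 across the 20 cytosolic and 0.738 across the 17 mitochondrial genes, and in the adjusted fit 0 of 37 members were called, beside 0.0763% of all genes.

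The third comparison, knockout oxybutynin with floxed vehicle, shows where the treated cells stood relative to cells with the gene. It shares its floxed libraries with the first comparison, so the values of both are given side by side and not counted as repeats. Of 20 cytosolic genes 14 were higher and 2 lower, and of 17 mitochondrial genes 8 were higher and 4 lower, where 35.1% of all genes were higher and 36.9% lower. The groups did not overlap for 15 cytosolic genes higher and 2 lower and for 8 and 4 mitochondrial genes, beside 38.9% and 40.1% of all genes. In the adjusted fit 16 cytosolic genes were higher and 1 lower, and 8 mitochondrial genes higher and 2 lower, beside 28.3% and 34.8% of all genes. Sars stood at 3.49-fold (log2 fold change 1.80 ± 0.10, adjusted p = 6.03e-11), beside 2.89-fold in knockout vehicle. Wars, at 312, 279.5 and 316 CPM with oxybutynin, stood at 1.66 ± 0.09 beside 1.45 ± 0.09 in knockout vehicle. Gars, at 609, 577 and 645 CPM, stood at 1.18 ± 0.08 beside 1.08 ± 0.08. Yars (212, 198 and 189 CPM with oxybutynin; 1.07 ± 0.09) and Aars (477, 443 and 433 CPM; 1.04 ± 0.09) also reached 2-fold in this comparison as counted. In the adjusted fit Sars (1.40) and Wars (1.16) stayed above 2-fold, and Gars (0.90), Yars (0.72) and Aars (0.66) were below it. The difference between the 2 knockout groups for these genes is the uncalled one given above.

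Most other members differed less from floxed vehicle. Vars (0.92), Mars (0.75), Cars (0.71), Qars (0.45), Iars (0.36), Farsa (0.34), Kars (0.33), Farsb (0.32) and Rars (0.28) were called higher, and Lars (-0.04), Nars (0.00), Tars (-0.02) and Hars (0.20) were not called. Dars was at -1.25 ± 0.10 (adjusted p = 6.07e-09) and -0.36 in the adjusted fit. Eprs stood at 217, 184 and 217 CPM with oxybutynin (-0.58 ± 0.08, adjusted p = 6.75e-06) and at 0.48 in the adjusted fit, again with the opposite sign. Among mitochondrial genes Vars2 stood at 73.6, 63.9 and 65.7 CPM with oxybutynin (1.00 ± 0.10, adjusted p = 7.6e-08) and Tars2 at 52.2, 50.8 and 46.1 CPM (0.79 ± 0.09, adjusted p = 7.12e-07). Every oxybutynin library lay above every floxed one for both, and in the adjusted fit Vars2 was at 0.38 and Tars2 at 0.62. Pars2 (14.5, 12.9 and 14.1 CPM; 0.73), Aars2 (20.7, 18.7 and 15.2 CPM; 0.62) and Fars2 (23.2, 20.1 and 17.7 CPM; 0.55) were higher too, as were Sars2 (0.40), Ears2 (0.39) and Lars2 (0.38). Rars2 (15.7, 15.5 and 17.8 CPM; -0.68), Mars2 (11.9, 11.9 and 10.8 CPM; -0.66), Yars2 (13.9, 13.9 and 15.7 CPM; -0.46) and Nars2 (16.6, 17.3 and 15.9 CPM against 19.5, 21.2 and 20.5 CPM in floxed vehicle; -0.30) were lower. Nars2 lost its call without floxed vehicle replicate 2 or 3 or oxybutynin replicate 1 or 3 (adjusted p = 0.0521 to 0.0741), and Sars2 without floxed vehicle replicate 1 or 3 or oxybutynin replicate 1 (adjusted p = 0.063 to 0.0944). In the adjusted fit Mars2 (0.75), Nars2 (0.27), Iars2 (0.19) and the cytosolic Tars (0.25) were called higher, Hars (-0.14) changed sign without a call, Sars2 (-0.33) was called lower, and Aars2 (-0.05), Fars2, Ears2 and Rars2 were not called. The uncalled mitochondrial genes included Wars2, Iars2, Cars2 and Hars2, between -0.20 and 0.02.

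Genes that work beside the synthetases were taken from a list of 26 for tRNA charging, proofreading and delivery. With knockout alone 7 of the 26 rose, 4 fell and 15 were not called (median log2 fold change 0.13), beside 29.9% of all genes higher and 33.4% lower; as shares of the list these counts are no larger than those over all genes. Those that rose included Xpot, which exports tRNAs from the nucleus (0.62 ± 0.09, adjusted p = 6.05e-06), Tsfm, the mitochondrial elongation factor Ts (0.66 ± 0.10, adjusted p = 2.89e-05), the elongation factor subunit Eef1b2 (0.33 ± 0.09) and the D-aminoacyl-tRNA deacylase Dtd1 (0.56 ± 0.15). Those that fell were Trnt1, which adds the CCA end to tRNAs (-0.95 ± 0.12, adjusted p = 3.13e-06), the mitochondrial initiation factor Mtif2 (-0.63 ± 0.11), Ankrd16, a partner of alanyl-tRNA synthetase (-0.57 ± 0.11), and Tarsl2, a second cytosolic threonyl enzyme that the naming rule leaves out (-0.50 ± 0.12). The scaffold genes of the multisynthetase complex were not called, with Aimp1 at -0.16, Aimp2 at 0.17 and Eef1e1 at 0.12. All 3 were called in the adjusted fit, Aimp1 at 0.86 and Aimp2 at -0.32 with the opposite sign and Eef1e1 at 0.44, so calls and, for Aimp1 and Aimp2, directions depend on that setting. With oxybutynin against vehicle 0 of 26 were called, and with oxybutynin against floxed vehicle 9 were higher and 5 lower, beside 35.1% and 36.9% of all genes, among them Tsfm (0.83), Xpot (0.45), Eef1g (0.54), Aimp2 (0.46), Trnt1 (-1.29), Mtif2 (-1.10), Tarsl2 (-0.87) and Ankrd16 (-0.68). Eef1g (0.08) and Aimp2 (-0.18) were not called in the adjusted fit of that comparison, Aimp2 with the opposite sign, and Aimp1, called lower at -0.22, was called higher at 1.02. In the adjusted fit of knockout against floxed vehicle 11 of the list were higher and 7 lower, beside 26.4% and 34.1% of all genes, with Xpot at 0.76, Tsfm at 0.38 and Trnt1 at -0.21. Dtd1, at 0.21, lost its call in that fit (adjusted p = 0.212).

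Some members share exonic bases with a neighbour on the opposite strand, and no source used here gives the strand setting of the counting. Mars shares 68 of its 3423 exonic bases with Ddit3, which rose by a log2 fold change of 2.96 with knockout. Iars2 shares 2034 of 8885 bases with Rab3gap2, Farsb 248 of 2620 with Sgpp2, and Hars and Hars2 share 195 bases with each other. Aars shares 1326 of 9282 exonic bases with Exosc6 on the same strand. The part of these overlaps in the values was not tested.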

How the data were processed

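The authors deposited raw whole-number counts for each Ensembl gene, without normalization. The tools named are STAR 2.7.0e, Trim Galore 0.6.0, DESeq2 1.26.0, FastQC and cutadapt, and the builds mm10 and GRCm38, per the submitters' processing notes. Libraries were made from 2 µg of Trizol RNA with a directional NEBNext kit, per the labels' protocols. No source used here gives the counting step, its strand setting or its annotation release. All 55536 IDs were found in GENCODE M21, 0 columns lacked a sample and no row lacked a gene.

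Counts were tested with edgeR 4.0.16 in R 4.3.3: filterByExpr (15720 genes), TMM scaling, and the quasi-likelihood test on all 9 libraries with 1 mean per group and 6 residual degrees of freedom. P-values were adjusted by Benjamini-Hochberg over every gene tested and called under 0.05. Each SE is the absolute log2 fold change divided by the square root of that test's F statistic. CPM uses TMM-scaled totals. Lengths and GC content are from GENCODE M21. The adjusted fit entered each library's spline trend (5 degrees of freedom each for GC content and exon length) as offsets. Alternatives were DESeq2 1.42.0, RLE scaling, library totals, no filter, the 2 groups alone, an adjusted p under 0.01, leaving out each library, and, added after seeing the data, protein-coding genes alone. A mitochondrial member, though counted, and a promoter stretch are not reported here. All other members are named; library values are given for up to 5 called members per class, direction and comparison with the largest change, and up to 4 called genes per direction of the list of 26 by lowest adjusted p. Members and lists were chosen with earlier results of these data known.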

Additional observations from a re-analysis of the deposited data

How the results depend on the processing

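No paired analysis was possible because the labels number the libraries KE1 to KE9 with no number shared between groups. Leaving out each library in turn gave, for knockout against floxed vehicle, 12 to 17 cytosolic genes higher and 2 to 2 lower, and 6 to 8 mitochondrial genes higher and 2 to 4 lower. For oxybutynin against floxed vehicle the ranges were 14 to 15, 2 to 2, 7 to 8 and 3 to 4. For oxybutynin against knockout vehicle they were 0 to 7, 0 to 6, 0 to 1 and 0 to 2, with every count above 0 coming from leaving out knockout vehicle replicate 3. The share of all genes called in these 3 comparisons, in the same order, ran from 55.9% to 68.2%, from 65.3% to 74.8% and from 0% to 26%. For oxybutynin against knockout vehicle no filter gave 1 cytosolic gene higher and 2 lower, where 3.65% of 30103 genes were called. DESeq2 gave 3 lower, where 11.3% of genes were called, against 0 members in the test as reported. The GC and length adjustment left 1 cytosolic gene lower in both comparisons with floxed vehicle, and 2 mitochondrial genes lower for oxybutynin against floxed vehicle; the cause was not tested.

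Among values called in the test as reported or in the alternative, signs turned round under the GC and length adjustment alone. Knockout against floxed vehicle became 0.50 for Eprs, -0.063 for Aars2, 0.60 for Mars2 and -0.40 for Sars2. Oxybutynin against floxed vehicle became 0.48 for Eprs, 0.25 for Tars, -0.053 for Aars2, 0.19 for Iars2, 0.75 for Mars2, 0.27 for Nars2 and -0.33 for Sars2. Values that were not called in either fit changed sign in 12 further cases under that adjustment, among them Hars, at -0.10 for knockout and -0.14 for oxybutynin against floxed vehicle. Uncalled values changed sign under other settings too. For oxybutynin against knockout vehicle Lars2 was at 0.0081 as reported and at -0.0015 with DESeq2. Sars, Wars, Gars, Aars and Yars kept their direction and call against floxed vehicle under the 17 alternatives run.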
